A study of Mus musculus with 2 samples.

Results

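The genes of MHC class I presentation examined here were 10 of the 23183 rows of a gene expression table. They were taken by symbol and comprised the heavy chains H2-K1, H2-D1 and H2-T23, the light chain B2m, the peptide transporter genes Tap1 and Tap2, the loading factor Tapbp, the immunoproteasome genes Psmb8 and Psmb9, and the coactivator Nlrc5. All 10 had a row. RNA came from the epidermis of newborn C57BL/6 mice, with 1 library from wild-type mice (WT) and 1 from mice homozygous for the L19M allele of Foxn1, a forkhead transcription factor of keratinocytes. The number of pups pooled, their exact age and their sex are unknown here. Because each genotype had 1 library, no test between genotypes was possible and no difference below has a replicate check.

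MHC class I molecules display peptides from inside the cell to CD8 T cells and to NK cell receptors. The proteasome cuts cytosolic proteins into peptides, the TAP transporter carries them into the endoplasmic reticulum (ER), and the loading complex fits them onto a heavy chain paired with beta-2-microglobulin. Interferon raises most of these genes, exchanges catalytic proteasome subunits for inducible ones, and acts in part through NLRC5, which is recruited to a promoter module of X and Y boxes. In skin, nearly every cell carries class I, whereas class II is largely a property of antigen-presenting cells.

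The heavy chain genes differed from one another in direction, and whether promoter sequence had a part in that was not tested. As a description only, the stretches ahead of the start sites of the heavy chain genes are shown, with that of B2m for comparison. Each is the 200 bases immediately upstream of the annotated start, read in the direction of the gene, from the RefSeq promoter table of GRCm38.p6, which is the assembly called mm10. The positions are chr17:34000334-34000533 on the minus strand for H2-K1, chr17:35262894-35263093 on the plus strand for H2-D1, chr17:36032702-36032901 on the minus strand for H2-T23 and chr2:122147487-122147686 on the plus strand for B2m. Capitals mark matches on either strand to the NF-kappaB core GGGATTCCC, the interferon response core GAAANNGAA, the X2 box cores TGACGC and TGATGC, and the Y box core CCAAT.
H2-K1: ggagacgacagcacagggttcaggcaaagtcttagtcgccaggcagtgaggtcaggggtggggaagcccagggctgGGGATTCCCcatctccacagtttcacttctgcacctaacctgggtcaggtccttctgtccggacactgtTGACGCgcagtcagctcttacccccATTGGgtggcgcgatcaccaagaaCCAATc
H2-D1: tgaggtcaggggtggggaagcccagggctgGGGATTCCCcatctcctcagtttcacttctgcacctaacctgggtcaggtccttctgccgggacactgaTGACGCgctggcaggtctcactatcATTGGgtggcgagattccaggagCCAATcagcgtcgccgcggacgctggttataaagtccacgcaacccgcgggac
H2-T23: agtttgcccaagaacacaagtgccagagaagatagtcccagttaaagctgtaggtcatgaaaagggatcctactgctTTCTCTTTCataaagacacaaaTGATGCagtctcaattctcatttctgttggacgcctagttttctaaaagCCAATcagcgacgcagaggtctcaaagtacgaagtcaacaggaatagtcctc
B2m: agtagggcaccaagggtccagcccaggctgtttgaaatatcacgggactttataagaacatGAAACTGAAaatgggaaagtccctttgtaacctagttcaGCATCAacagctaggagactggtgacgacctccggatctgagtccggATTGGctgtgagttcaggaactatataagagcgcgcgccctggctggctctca

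The upstream stretches of H2-K1 and H2-D1 were close relatives, with a longest identical run of 46 bases that spans the NF-kappaB core. The longest run that either shared with H2-T23 or B2m was 12 bases. In windows of 250 bases before to 50 after the start, H2-K1 and H2-D1 were the 2 of 8 members with a window in the table that held GGGATTCCC, which 0.353% of all 32851 windows held. The same pair held the X2 core TGACGC (7.40% of all windows). H2-T23 and B2m, but not H2-K1 and H2-D1, matched the interferon response core as spelt GAAANNGAA (8.56% of all windows). Other spellings of an interferon element were not searched, so no match to this pattern does not mean that a promoter lacks one. H2-T23, B2m and Psmb8 held the other X2 form, TGATGC (10.9%). The Y box core was in 7 of the 8 windows, against 37.4% of all windows, with Psmb8 the exception. These are not 7 separate sites. The Tap1 match (-222 to -218 from its start) and the Psmb9 match (-8 to -4) are the same bases between these neighbours. Placement also differed, with matches starting at -248 and -165 in Tapbp, and at -53 in H2-D1 and B2m. A second NF-kappaB form, GGAANTTCC, was in none of the 8 windows (0.928% of all). Tap2 and Nlrc5 were the other members. A match of letters is a description and does not show that a factor binds there.

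Among the heavy chains, H2-K1 was lower in the L19M library. H2-K1 encodes a classical class I molecule, H-2K, and lies on the minus strand of chromosome 17 (33996012 to 34000333, mm10). Its level was 23.5 FPKM in WT and 14.6 in L19M. FPKM is fragment number scaled to transcript length and library depth, so levels can be set side by side between genes. The FPKM ratio of L19M over WT was 0.621. Its 95% counting interval of 0.543 to 0.711 rests on an estimated 478 fragments in WT and 402 in L19M. All such intervals cover counting error only, and not the spread between animals, litters or preparations.

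H2-D1, the other classical heavy chain gene of this strain, was also lower, by less. It lies on the plus strand of chromosome 17 (35263094 to 35267497) and had 66.6 FPKM in WT and 50.8 in L19M, for a ratio of 0.763 (counting interval 0.704 to 0.827). H2-T23 was higher in L19M. It encodes Qa-1, a nonclassical heavy chain recognised by the CD94/NKG2 receptors of NK cells, and lies on the minus strand (36029977 to 36032701). It had 30.3 FPKM in WT and 39.5 in L19M, for a ratio of 1.30 (counting interval 1.16 to 1.46).

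The pattern was therefore a shift in the mix of heavy chain RNA. H2-K1 made up 19.5% of the summed FPKM of these 3 heavy chains in WT and 13.9% in L19M, H2-D1 55.3% and 48.5%, and H2-T23 25.2% and 37.6%. The sum itself was 120 FPKM in WT and 105 in L19M. Ratios between genes of the same library do not depend on how it was scaled. H2-T23 stood at 1.29 times the FPKM of H2-K1 in WT and at 2.71 times in L19M, and this quotient was 2.10 times larger in L19M (counting interval 1.76 to 2.51). H2-T23 over H2-D1 was 0.455 in WT and 0.777 in L19M, larger by 1.71 times (1.49 to 1.97).

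B2m, which encodes the light chain shared by all these heavy chains, was the most abundant member in both libraries and differed little. It lies on chromosome 2 (122147687 to 122153082, plus strand), away from the H2 complex, and had 142 FPKM in WT and 151 in L19M. The ratio of 1.06 had a counting interval of 0.990 to 1.14. B2m RNA amounted to 1.18 times the sum of the 3 heavy chains in WT and 1.44 times in L19M. Against H2-K1 alone it was 6.04 times as high in WT and 10.3 times in L19M.

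**Figure D1:**
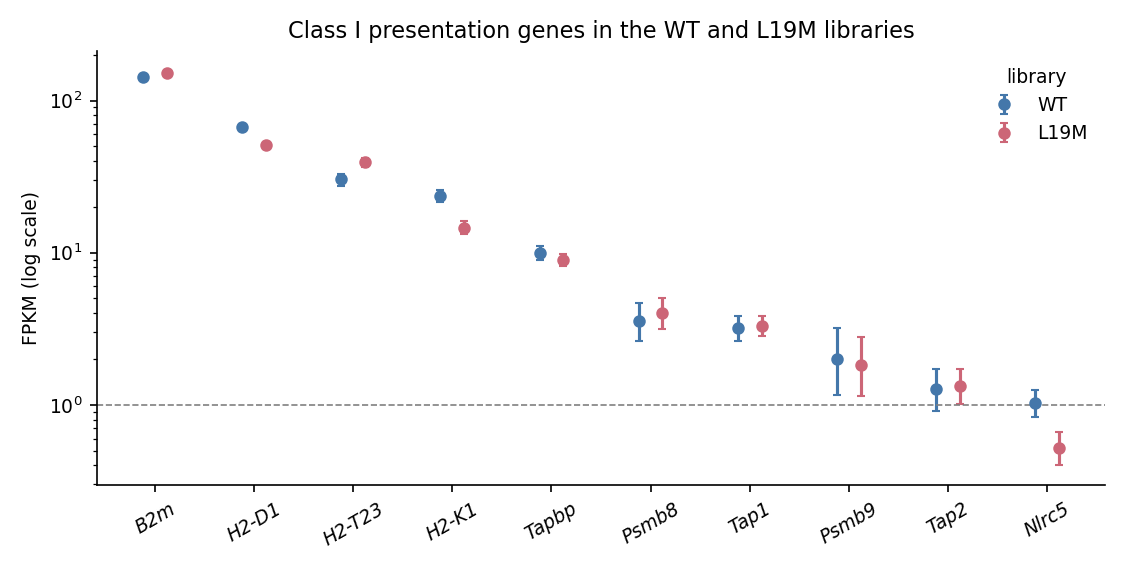
Level in FPKM (log axis) of the 10 class I presentation genes in the WT and L19M libraries, 1 point per library, in order of the WT level. Bars are 95% Poisson intervals for counting error and the dashed line is the floor of 1 FPKM. B2m leads at 142 and 151 FPKM, H2-K1 and H2-D1 sit lower in L19M, H2-T23 sits higher, and Nlrc5 has 1.03 FPKM in WT and 0.517 in L19M, on either side of the floor.

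The order of levels was the same in both libraries from B2m through H2-D1, H2-T23, H2-K1 and Tapbp, with Psmb8, Tap1, Psmb9, Tap2 and Nlrc5 below them. The counting intervals of the 5 most abundant genes did not overlap those of their neighbours in that order in either library. In WT each neighbouring pair from Psmb8 to Nlrc5 overlapped, and in L19M Psmb8 overlapped Tap1 and Psmb9 overlapped Tap2. The heavy chains and B2m thus lay above the other members in both libraries, and closest at H2-K1 and Tapbp in L19M (14.6 and 8.94 FPKM).

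Neither transporter gene differed detectably at this depth. Tap1 and Tap2 encode both subunits of the pump that moves peptides into the ER. Tap1 had 3.19 FPKM in WT and 3.31 in L19M, for a ratio of 1.04 (counting interval 0.817 to 1.32). Tap2 had 1.27 and 1.32 FPKM, also a ratio of 1.04, with a wider interval of 0.688 to 1.60 from 41 and 58 estimated fragments. Tapbp encodes tapasin, which tethers the heavy chain to TAP and edits its peptide. It had 9.98 FPKM in WT and 8.94 in L19M, for a ratio of 0.896 (0.778 to 1.03).

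The inducible catalytic subunits were scarce in both libraries and did not differ detectably either. Psmb8 encodes the subunit LMP7 and Psmb9 the subunit LMP2, which replace the standard subunits encoded by Psmb5 and Psmb6 in the immunoproteasome. Psmb8 had 3.54 FPKM in WT and 4.01 in L19M, for a ratio of 1.13 (counting interval 0.785 to 1.64). Psmb9 had 2.003 and 1.84 FPKM, a ratio of 0.917 whose interval of 0.461 to 1.85 reflects 17 and 21 estimated fragments.

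Within each library, standard subunits outweighed inducible ones. Psmb8 reached 1.74% of the FPKM of Psmb5 in WT (counting interval 1.29% to 2.29%) and 2.07% in L19M (1.63% to 2.60%). Psmb9 reached 0.885% of Psmb6 in WT and 0.949% in L19M. Psmb10, the gene of the inducible subunit MECL-1, was at 9.76 FPKM in WT and 9.34 in L19M. It reached 3.09% of its counterpart Psmb7 in WT (2.60% to 3.65%) and 3.92% in L19M (3.37% to 4.53%). That quotient was 1.27 times larger in L19M (1.01 to 1.59), and it was the denominator that differed, as Psmb7 had 316 FPKM in WT and 238 in L19M.

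Psmb9, Tap1, Psmb8 and Tap2 sit side by side in the H2 complex. Psmb9 and Tap1 run in opposite directions with 225 bases between their rows, Psmb8 follows Tap1 after 969 bases, and Tap2 follows Psmb8 after 3024 bases. The log2 ratios of these neighbours (a pseudocount of 1 added to each FPKM) were -0.08, 0.04, 0.14 and 0.04. With annotated transcripts cut into windows of 100 bases and matched on either strand, Psmb9 shared 9.02% of its windows with Tap1. The annotated Psmb9 transcript used for this had 1352 bases, against 806 in its row, and the rows themselves do not overlap. Whether any fragments behind the deposited values were shared between these genes is therefore unknown.

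Nlrc5 had less RNA in L19M, at a level too low for the floor applied to other genes. It encodes the NLR-family transactivator of class I genes and lies on the plus strand of chromosome 8 (94472763 to 94527272). It had 1.03 FPKM in WT from 98 estimated fragments and 0.517 FPKM in L19M from 67, giving a ratio of 0.504 (counting interval 0.364 to 0.694). Its mean of 0.772 FPKM was under the floor of 1 FPKM that defines a measured gene, so it is in no count of measured members. Ciita, the related transactivator of class II genes, was given whatever its value. It had 0.345 FPKM in WT and 0.171 in L19M from 29 and 19 estimated fragments, a ratio of 0.495 (0.256 to 0.891). Leukocytes are known sources of both transcripts, and in whole epidermis fewer cells of a type and less RNA per cell cannot be told apart, which applies to every gene here.

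Of the 9 measured members, none was at least 2-fold apart, against 2.25% of all 11841 measured genes (0.532% higher and 1.71% lower). Counts at 1.5-fold and 2-fold here and below use the log2 ratio with its pseudocount, which brings low genes nearer to 0. At 1.5-fold, H2-K1 alone was apart, with a log2 ratio of -0.65, against 6.06% of all measured genes. Of these 4.07% were at least 1.5-fold lower and 1.99% higher, so 1 of 9 is a count too small to set against that share. The log2 ratios of the measured members ran from -0.65 for H2-K1 to 0.37 for H2-T23, a span that held 90.1% of all measured genes. Their median was 0.04, beside 0.0049 for all measured genes, and it turned negative when the floor was dropped (-0.02) or set at 5 FPKM (-0.14). Of the 9, the counting interval of the ratio lay wholly below 1 for H2-K1 and H2-D1, and wholly above 1 for H2-T23. It lay wholly on one side of 1 for 47.5% of 11802 measured genes, so an interval that leaves out 1 was common between these libraries.

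**Figure D2:**
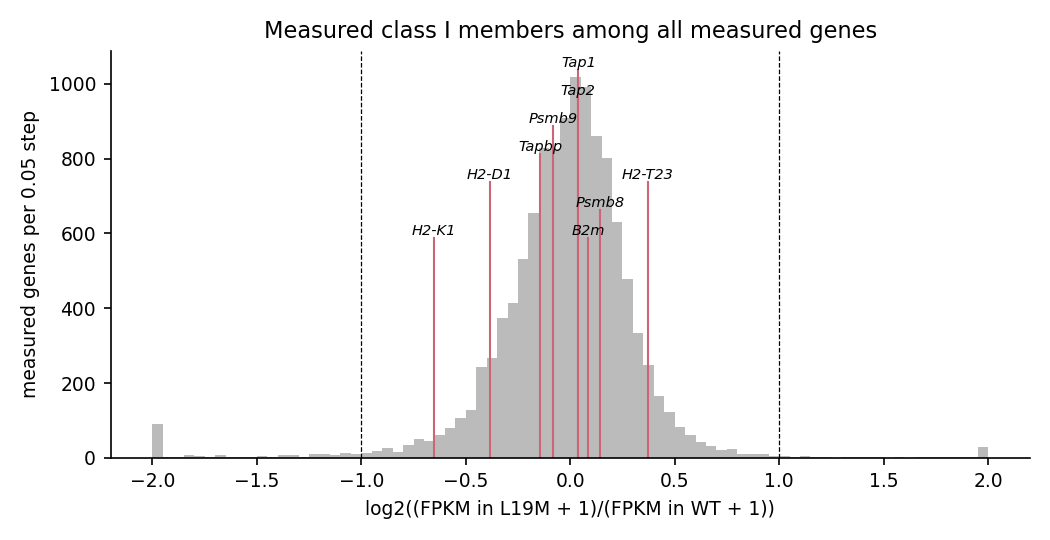
Distribution of the log2 ratio of L19M over WT, pseudocount 1, over the 11841 measured genes (grey bars, with values beyond -2 and 2 gathered in the outermost bars), with each of the 9 measured class I members as a red line whose height only separates the labels. Dashed lines mark 2-fold, and every measured member lies between them, from H2-K1 at -0.65 to H2-T23 at 0.37.

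The values of the heavy chains depend on how the authors' pipeline placed fragments shared by related genes, and that step is unstated in the labels and headers. Between annotated transcripts, H2-K1 and H2-D1 were identical at 91.1% of aligned bases, H2-K1 and H2-T23 at 79.4%, and H2-D1 and H2-T23 at 81.3%. Of windows of 50 bases, 91.2% in H2-K1, 85.7% in H2-D1 and 70.2% in H2-T23 occurred in no other gene's transcript. With 100 bases these shares were 100%, 95.4% and 92.7%. H2-T23 also overlaps A930015D03Rik on the opposite strand, which had 1.67 FPKM in WT and 2.39 in L19M. The library kit marks strand, but counting by strand is stated nowhere in the labels or headers. B2m and Nlrc5 had no shared window of either length.

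Other heavy chain genes gave few values above the floor. Of 24 with a row, 3 were measured, all with log2 ratios above 0 and a median of 0.40, and 9 were listed at 0 in both libraries. H2-T22 alone was 1.5-fold higher (1.99% of all measured genes). Without the floor, 15 had a value in either library, 9 of them above 0 on the log2 scale and 6 below. Among the lower, H2-T24, named after its value was seen, had 1.11 FPKM in WT and 0.370 in L19M. Its ratio was 0.333 (counting interval 0.164 to 0.646) from 31 and 14 estimated fragments. H2-T22, which encodes a nonclassical molecule seen by some gamma-delta T cells, had 6.40 FPKM in WT and 11.6 in L19M, for a ratio of 1.81 (counting interval 1.44 to 2.28). H2-Q4, of the Q region, had 3.34 and 4.74 FPKM, a ratio of 1.42 (1.07 to 1.90). H2-T9, whose row overlaps that of H2-T22 on the same strand, had 27.4 and 27.8 FPKM. H2-T22 shared 44.7% of its windows of 50 bases with other genes, above all H2-T10 (37.9%), so its own value is uncertain. H2-T22, H2-T9 and H2-T10 summed to 34.3 FPKM in WT and 39.9 in L19M, for a ratio of 1.16. Over all 27 heavy chain genes the sum was 161 FPKM in WT and 151 in L19M.

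**Figure D3:**
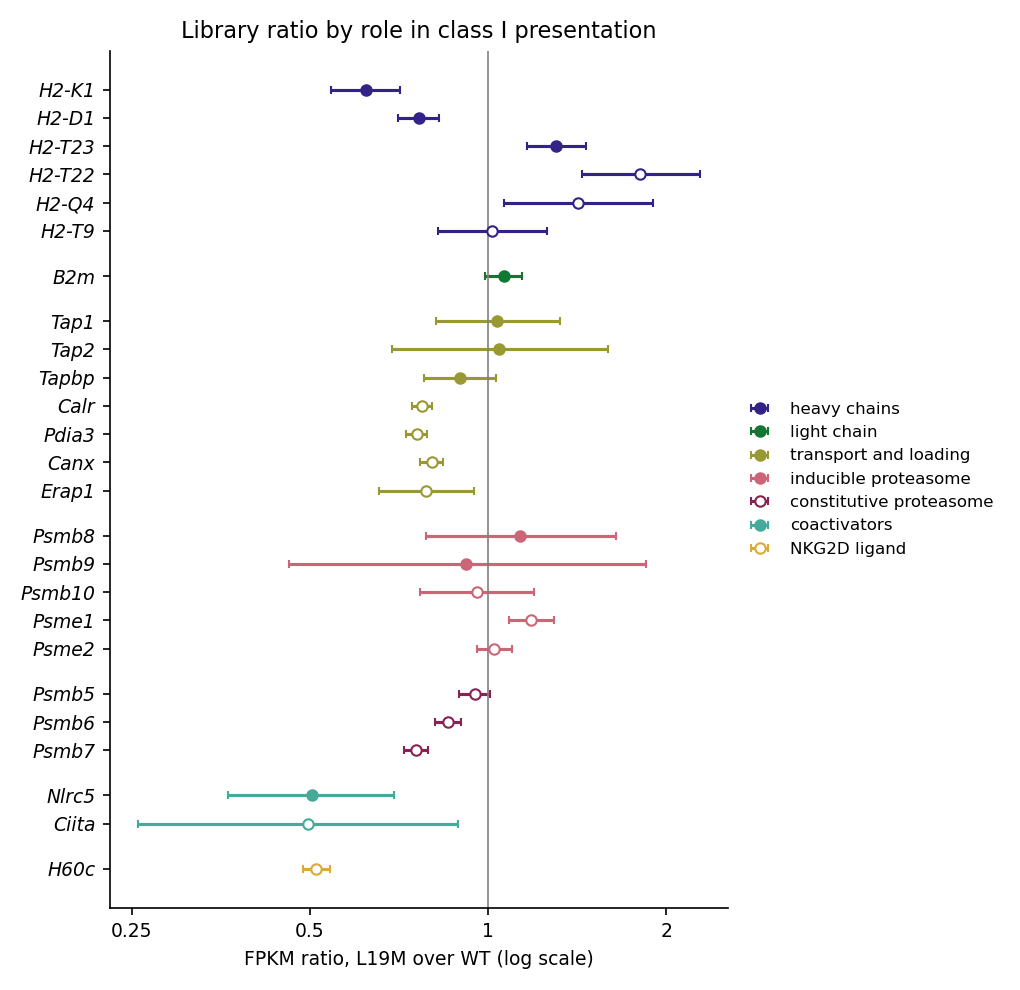
FPKM ratio of L19M over WT (log axis) for genes grouped by their role in class I presentation, with 95% counting intervals. Filled points are the 10 class I members and open points other genes of the pathway. H2-K1 (0.621) and H2-D1 (0.763) lie left of 1, H2-T23 (1.30) and H2-T22 (1.81) right of it, and Tap1, Tap2, Psmb8 and Psmb9 have intervals that hold 1.

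Genes listed for peptide loading and trimming in the ER were lower in L19M as a list, none past 1.5-fold on the log2 scale with the pseudocount (Hspa5 passed it by plain FPKM). All 13 were measured and all 13 had log2 ratios below 0 under every scaling tried, with a median of -0.27 beside 0.0049 for all measured genes. Calr, the chaperone calreticulin of the loading complex, had 205 FPKM in WT and 159 in L19M, for a ratio of 0.773 (counting interval 0.744 to 0.804). Pdia3, the disulfide isomerase ERp57 that pairs with tapasin, had 141 and 106 FPKM, a ratio of 0.757 (0.728 to 0.788). Hspa5, the general ER chaperone BiP, had 135 and 89.8 FPKM, a ratio of 0.665 (0.637 to 0.694). Sec61g, a subunit of the ER translocation channel and the most abundant of the list, had 286 and 225 FPKM. Canx and Erap1, named after their values were seen, encode calnexin and the aminopeptidase that trims peptides to class I length. Canx had 59.4 and 47.7 FPKM and Erap1 4.25 and 3.34 FPKM, ratios of 0.802 and 0.786. Most of these chaperones serve all secreted and membrane proteins and not class I alone. Not every gene of the list differed beyond counting error. Tapbpl (ratio 0.847, counting interval 0.683 to 1.05), Uggt1, Lnpep, Sec61a1 and Sec61b had intervals that held 1. They too were named after their values were seen.

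Standard proteasome genes leaned the same way, by smaller amounts. The 3 standard catalytic genes had log2 ratios of -0.08 for Psmb5, -0.22 for Psmb6 and -0.40 for Psmb7. All 11 other genes of the core particle were below 0, with a median of -0.14, beside 0.0049 for all measured genes. Of all 11841 measured genes, 5827 were below 0. Psma5 (-0.01) changed sign when both libraries were scaled to equal FPKM totals or in the authors' normalized values. Counting intervals of the ratio held 1 for Psma5, Psmb2 (0.885 to 1.03) and Psmb5 (0.893 to 1.01). Psma5 and Psmb2 were named after their values were seen. The core genes furthest from 0 were Psma3 (190 FPKM in WT and 143 in L19M), Psmb3 (324 and 245 FPKM) and Psma4 (214 and 178 FPKM). Psma7, at 313 and 288 FPKM, was the most abundant by its mean. Of 23 activator and regulatory particle genes 17 were below 0 (14 with equal FPKM totals), with a median of -0.09. Psmc6 (-0.47), Psmc3 (-0.32) and Psmd1 (-0.27) led them, and the most abundant, Psmd8, stood at -0.13. Several regulatory particle genes, such as Psmc1 and Psmd2, named after their values were seen, also had intervals that held 1. No gene of these lists was 1.5-fold apart.

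The inducible parts of the proteasome beyond the members were mixed. Psme1 and Psme2 encode the interferon-inducible activator PA28. Psme1 had 75.4 FPKM in WT and 89.2 in L19M, for a ratio of 1.18 (counting interval 1.08 to 1.29), and Psme2, named after its value was seen, had 131 and 134 FPKM. Pomp, the chaperone that assembles new core particles, had 361 and 291 FPKM, a ratio of 0.805 (0.764 to 0.849). The median of these 4 genes was -0.01 and became 0.04 with equal FPKM totals.

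Cytosolic peptidases, which trim or destroy peptides before transport, included 5 genes above 0 and 3 below, with a median of 0.14 and none 1.5-fold apart. The largest differences were those of Nrd1, the endopeptidase nardilysin (165 FPKM in WT and 113 in L19M, for a ratio of 0.684), Lap3, a leucine aminopeptidase (55.6 and 40.4 FPKM), and Thop1, thimet oligopeptidase (149 and 123 FPKM). Blmh, bleomycin hydrolase, which also completes filaggrin breakdown in epidermis, was the most abundant at 486 and 551 FPKM.

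Genes listed as interferon and NF-kappaB inputs to class I promoters mostly had higher values in L19M. The list holds inhibitors such as Socs3 beside activators, so its sign count does not measure the strength of a signal. Of 20 measured, 17 had log2 ratios above 0 and 3 below (19 and 1 with equal FPKM totals), with a median of 0.37. Among all 11841 measured genes, 6014 were above 0 and 5827 below. Socs3, a feedback inhibitor of JAK and STAT signalling, was the 1 gene at least 1.5-fold apart on the log2 scale with the pseudocount, against 6.06% of all measured genes (2.58 FPKM in WT, 4.43 in L19M, ratio 1.72, counting interval 1.34 to 2.22). By plain FPKM several other genes of the list also passed 1.5-fold. Irf9, the DNA-binding part of the type I interferon complex, had 5.78 and 8.97 FPKM, a ratio of 1.55 (1.31 to 1.84). Ifngr1, a chain of the interferon-gamma receptor, had 9.74 and 14.6 FPKM, and the kinase gene Jak1, the most abundant, 37.9 and 43.7 FPKM. Ifng itself was listed at 0 in both libraries.

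Further regulators of that list were named after their values were seen. Irf1, an interferon-gamma target that binds class I promoters, had 0.768 FPKM in WT and 1.43 in L19M, for a ratio of 1.86 (counting interval 1.26 to 2.89). The NF-kappaB genes Rela and Nfkb1 had ratios of 1.33 and 1.43. Irf8, a factor of myeloid cells, was the gene of the list furthest below 0, at 1.28 and 0.731 FPKM.

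Factors of the X and Y box module were near equality. Among 8 measured, 6 were above 0 and 2 below, with a median of 0.07. Nfyb, a subunit of the Y box factor NF-Y, was the furthest, at 14.7 FPKM in WT and 10.8 in L19M (ratio 0.738, counting interval 0.650 to 0.838). Atf1 had a log2 ratio of 0.19 and Rfxank of 0.17, and Nfyc, the most abundant, had 29.8 and 31.4 FPKM. Interferon-stimulated genes split, with 13 of 18 measured above 0 and 5 below, and a median of 0.16 that turned to -0.08 with a floor of 5 FPKM. Isg15, a ubiquitin-like modifier, was higher (7.46 and 12.1 FPKM, ratio 1.63, counting interval 1.18 to 2.26) and Irf7, a factor of type I interferon induction, was lower (24.7 and 13.1 FPKM, ratio 0.528, 0.463 to 0.603). Oasl2 had 1.13 and 2.12 FPKM, and Ifi27, the most abundant by its mean, 23.7 and 21.9 FPKM.

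**Figure D4:**
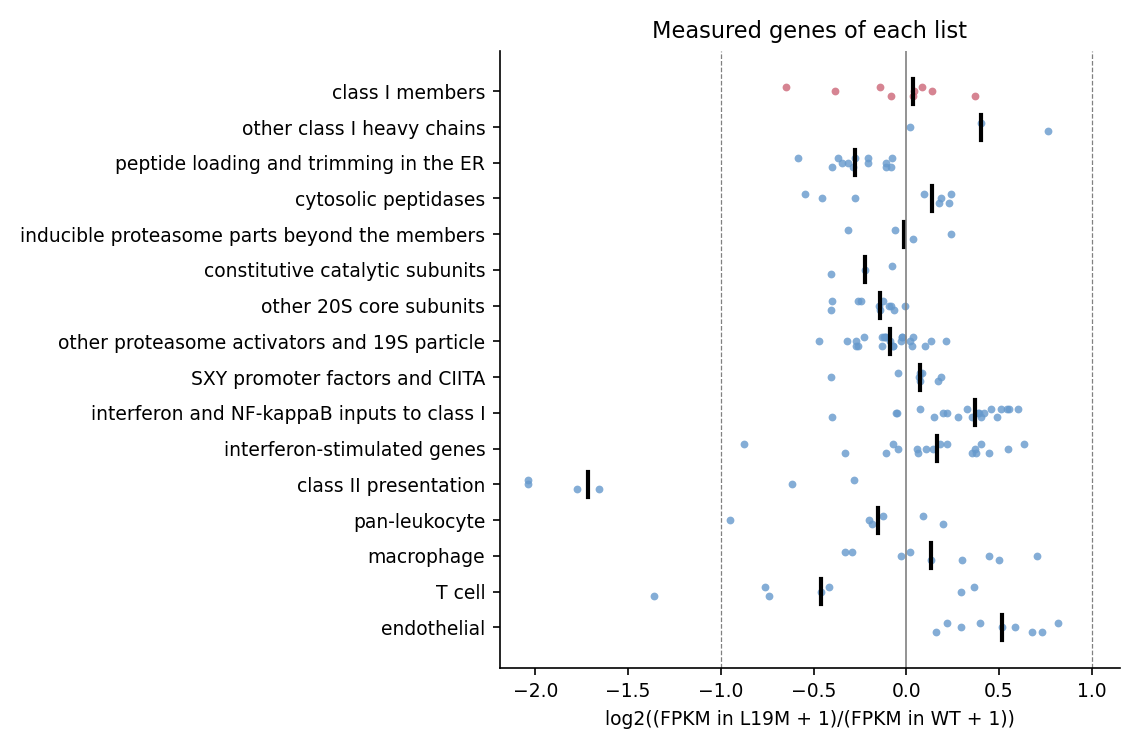
Log2 ratio of L19M over WT for each measured gene of 16 lists, with 1 point per gene, the list median as a black bar and dashed lines at 2-fold. The class I members (red) straddle 0 with a median of 0.04, the ER loading genes lie below 0 (median -0.27), the interferon and NF-kappaB inputs mostly above (median 0.37), and the class II genes furthest below (median -1.72).

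Molecules that resemble class I or are read beside it also differed between the libraries. H60c, a ligand of the activating receptor NKG2D that is made by keratinocytes and seen by epidermal gamma-delta T cells, had 92.6 FPKM in WT and 47.4 in L19M. Its ratio of 0.512 had a counting interval of 0.486 to 0.540, from 3423 and 2375 estimated fragments, and its log2 ratio with the pseudocount was -0.95, short of 2-fold. The other 7 NKG2D ligands with a row were not measured. Among 6 measured class I-like genes, Procr, the endothelial protein C receptor, was furthest from equality (3.10 and 1.13 FPKM, ratio 0.363, 0.222 to 0.580). Hfe, a regulator of iron uptake, had 3.31 and 2.20 FPKM, Mill1 2.20 and 1.42 FPKM, and Fcgrt, the neonatal Fc receptor, 9.50 and 10.6 FPKM. Receptors for class I were near or below the floor, with Klrd1 (CD94), a partner of the Qa-1 receptors, at 1.71 and 1.59 FPKM and Pirb at 0.812 and 1.34 FPKM. Lilrb4a, an inhibitory receptor of myeloid cells, was on the same list and had 1.10 and 3.08 FPKM. Whether it binds class I was not examined here, so its difference is not credited to class I receptors. Cd8a was listed at 0 in WT and at 0.0535 FPKM in L19M, the latter from 3 estimated fragments.

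Class II genes differed far more than the class I members in these libraries, and no test of that difference was possible. Of 6 measured class II genes, 5 were at least 1.5-fold lower and 4 at least 2-fold lower, against 4.07% and 1.71% of all measured genes, with a median of -1.72. H2-Ab1 and H2-Aa had ratios of 0.228 and 0.227, H2-Eb1 of 0.251, and Cd74, the invariant chain, of 0.310. The summed FPKM of the 10 class II genes in L19M was 0.288 of that in WT, beside 0.871 for the 3 class I heavy chains.

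Most class I members share the H2 region of chromosome 17 with those genes. Between Tapbp (start 33919478) and H2-T23 (end 36032701) lay 139 rows, 84 of them measured and 8 of these class I members. The median log2 ratio of the 84 was 0.02, and it was -0.01 with a floor of 5 FPKM. In this span 7 genes were 1.5-fold lower or more, against 4.07% of all measured genes, and 0 were higher by that much, against 1.99%. The count of higher genes was 2 with a pseudocount of 0.1 and 1 with equal FPKM totals. The lower genes were H2-K1, H2-DMb1, H2-Ab1, H2-Aa and H2-Eb1, with Ly6g6d (30.7 FPKM in WT, 2.91 in L19M) and Psors1c2 (41.6 and 11.8 FPKM), the last pair and H2-DMb1 being named after their values were seen. Without the class I and class II lists, the median of the 70 remaining measured genes was 0.02.

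**Figure D5:**
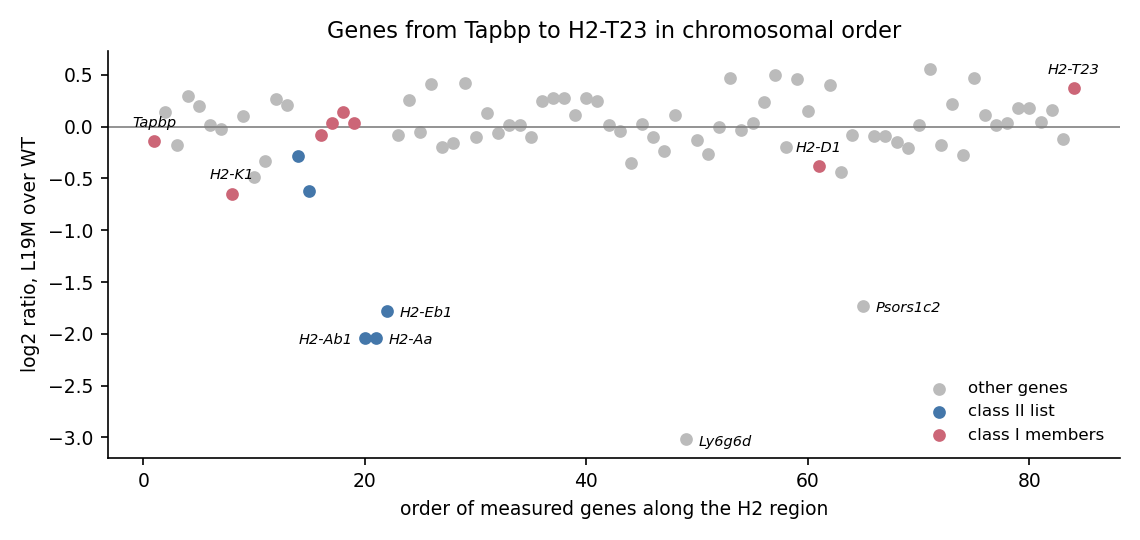
Log2 ratio of L19M over WT for the 84 measured genes between Tapbp and H2-T23 on chromosome 17, in chromosomal order and evenly spaced. Class I members are red, class II genes blue and other genes grey. The genes beyond -1 are H2-Ab1, H2-Aa, H2-Eb1, Ly6g6d and Psors1c2, and no class I member is among them.

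Markers of the cells that carry class I moved in different directions between the libraries, and their part in the class I values was not tested. The keratinocyte list had 10 of 11 genes in the table, all measured, summing to 34870 FPKM in WT and 32977 in L19M. Of these 10, 7 were above 0 and the median was 0.14, with Trp63 at 55.5 and 82.5 FPKM and Lor at 9384 and 7416 FPKM. The 6 pan-leukocyte genes summed to 99.2 and 69.7 FPKM, mostly through Cd52 (63.1 and 32.2 FPKM), while Ptprc (CD45) had 2.32 and 2.05 FPKM. Of the 6, Laptm5 (8.99 and 10.5 FPKM) and Coro1a (18.1 and 19.3 FPKM) were above 0. T cell genes summed to 47.3 and 38.3 FPKM over 9 genes, with Cd3g at 13.9 and 4.81 FPKM and Cd3e at 2.07 and 1.23 FPKM. The most abundant, Thy1, weighed most in the sum and was higher in L19M at 18.3 and 23.96 FPKM. Of 7 measured T cell genes 5 were below 0 and 2 above. Of these 7, 3 were at least 1.5-fold lower, against 4.07% of all measured genes. The 8 Langerhans and dendritic cell genes summed to 96.2 and 73.4 FPKM, of which Epcam, also a gene of follicle keratinocytes, gave 77.8 and 56.3 FPKM. Cd207, which defines Langerhans cells, rested on 5 and 1 estimated fragments. The 3 measured genes of this list were below 0 (2 below and 1 above with equal FPKM totals). Without a floor, 6 of the 8 were below 0 and 2 above. Those above were Flt3 and Zbtb46 (0.0894 and 0.429 FPKM), both under the floor and named after their values were seen. Macrophage genes summed to 95.3 and 110 FPKM over 9 genes, with Adgre1 at 4.58 and 3.55 FPKM and Lyz2 at 10.4 and 17.5 FPKM. All 9 endothelial genes were above 0, as were 6014 of all 11841 measured genes, and they summed to 22.6 and 35.7 FPKM. Their median was 0.52, and 4 of the 9 were at least 1.5-fold higher, against 1.99% of all measured genes. Plvap was furthest, at 1.83 and 4.01 FPKM, and Pecam1 had 4.53 and 6.28 FPKM. Fibroblast genes summed to 991 and 1207 FPKM over 9 genes, with Vim at 258 and 423 FPKM, and Lum the other way at 46.7 and 29.6 FPKM. No marker of these lists was listed at 0 in either library. Foxn1 had 3.74 FPKM in WT and 5.44 in L19M, and a level cannot check a label that names a change in the protein.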

How the data were processed

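Poly(A)-selected RNA was sequenced from 1 WT and 1 L19M library, prepared with a directional kit, per the labels' protocols. The authors deposited 1 table with FPKM values per gene under a heading for raw data, log2 values with quantile normalization, per the file headers and the information sheet, and their ratio (fold) of L19M over WT. Cufflinks, edgeR and R 3.5.1 are named without a role, per the submitters' processing notes. The information sheet names mm10 and the processing notes GRCm39. Rows of the members with a RefSeq GRCm38.p6 promoter window started at its start site, so positions are mm10 and 1-based.

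From the deposited FPKM, log2((L19M + 1)/(WT + 1)) was computed, with a pseudocount of 1 that understates differences of low genes. A gene with a mean of at least 1 FPKM counted as measured. Low FPKM values of transcripts of at least 1000 bases fell in steps of whole fragments, which gave depths of 14145717 fragments for WT and 19209131 for L19M. With values of up to 20 fragments, 84.0% and 83.5% lay at most 0.1 from an integer. Fragment numbers were estimated for transcripts of at least 300 bases, with exact Poisson intervals for levels, Clopper-Pearson intervals for ratios and conditional odds ratio intervals for quotients (scipy 1.17.1), all at 95%. PCR copies are not independent molecules. A count of 0 allows up to 3 fragments, or 0.118 FPKM in WT and 0.0872 FPKM in L19M for a transcript of 2000 bases. The procedure was tested on simulated data. Sequence identity used GENCODE M21 transcripts, since protein sequences were not used here.

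The 10 members and 21 other gene lists, with 257 entries in all of which 5 matched no row, were chosen with earlier results of these data known. Text names all members, Psmb5, Psmb6, Psmb7, Psmb10, Ciita and Foxn1, the 3 measured genes with the largest absolute log2 ratio and the most abundant gene of each list, and the leading markers of cell types; not every gene so named is printed. With 2 libraries no likeness of pattern across samples could be computed. Alternatives were pseudocounts of 0.1 and 0.5, no floor, a floor of 5 FPKM, the authors' normalized values, equal FPKM totals and centring on the median.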

Additional observations from a re-analysis of the deposited data

How the results depend on the processing

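H2-K1 and H2-D1 were lower and H2-T23 higher in L19M under all 7 alternatives, with log2 ratios from -0.68 to -0.60, -0.39 to -0.33 and 0.37 to 0.43. Among measured members H2-K1 stayed the 1 gene at least 1.5-fold apart and none reached 2-fold. Nlrc5, below the floor, ran from -0.87 (pseudocount 0.1) to -0.41. The median of the members changed sign without a floor (-0.024) and with a floor of 5 FPKM (-0.14), which change the genes included. Without a floor, the median of the class I receptor list, which includes Lilrb4a, was -0.021. With the floor of 5 FPKM, medians became 0.14 for class I-like genes, -0.077 for interferon-stimulated genes, 0.092 for pan-leukocyte genes and -0.013 for the H2 region. With equal FPKM totals, the inducible proteasome parts had a median of 0.044. Of 811 alternative values, 782 stayed within the counting spread of the main value, or within 1.5 times for counts. Direction was checked only for list medians and for named genes at least 1.5-fold apart. Other values near 0 could therefore change sign and still be among the 782. A different NF-kappaB pattern, GGGANNTCC, which does not include GGGATTCCC, matched 0 members. No paired analysis was possible because each genotype has 1 library, and for the same reason no library could be left out. Among the members, depth limits Psmb9, Tap2 and Psmb8 most, and differences between animals cannot be judged at all.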
